A study of Mus musculus with 6 samples.

Results

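Nodal is a secreted ligand of the TGF-beta family that acts in the early mouse embryo and in the stem cells taken from it. It binds type I and type II activin receptors together with the co-receptor Cripto, the product of Tdgf1, and the receptors phosphorylate SMAD2 and SMAD3, which enter the nucleus with SMAD4 and partners such as FOXH1. Signalling switches on its own inhibitors: the secreted antagonists Lefty1 and Lefty2, which block the ligand and Cripto, and SMAD7, which blocks the activated receptor inside the cell. The 9 genes described here are the ligand gene Nodal, the co-receptor gene Tdgf1, the receptor genes Acvr1b and Acvr2b, the signal transducer genes Smad2 and Smad3, and the inhibitor genes Lefty1, Lefty2 and Smad7. They were chosen by gene symbol among 19937 genes read on the arrays, all 9 were measured, and each had 1 probe set. These genes and the gene lists below were chosen with earlier results of these data known. Their counts beside the share of all genes are therefore descriptive only.

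Total RNA was read on 6 single-colour Affymetrix Mouse Gene 1.0 ST arrays, 3 of embryonic stem (ES) cells that carried a FLAG-CTCFL vector and 3 of ES cells that carried a control vector. Both groups were male cells cloned from 46C, a line with a GFP knock-in at the Sox1 gene on the 129P2/OlaHsd background, and both were grown with 10% serum under puromycin at 1 µg/ml. CTCFL, or BORIS, is a germ cell relative of the insulator protein CTCF that shares its zinc finger domain. The labels speak of biological replicates, but neither the promoter of the vector nor the number of clones behind the 3 arrays of a group is given, so p-values measure the spread between these arrays only. Values are log2 signals, on which a difference of 1 is a doubling, and a signal is compared only with the signal of the same probe set on other arrays.

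As a check of the labels, the Ctcfl probe set read 11.33, 11.22 and 11.24 in FLAG-CTCFL cells, against 7.70, 7.85 and 7.89 in control vector cells. Array medians lay between 7.92 and 7.99. Of the ES cell markers, Pou5f1 averaged 12.54 in FLAG-CTCFL cells and 12.65 in control vector cells and did not pass the test, Sox2 averaged 12.46 and 12.67 and Nanog 12.72 and 13.35, and both of these were lower. None of the 9 ES cell markers was below 7.63, the level under which 95% of odorant and vomeronasal receptor genes lay (the dim limit). Over all genes, 30.9% passed the test between the groups (limma with Benjamini-Hochberg adjustment, adjusted p at most 0.05), 12.5% higher and 18.4% lower in FLAG-CTCFL cells. This balance depended on the scaling: 17.3% were higher and 18.3% lower after quantile normalization, and 8.95% higher and 19.1% lower after subtraction of array medians.

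The 3 inhibitor genes of the pathway were all lower in FLAG-CTCFL cells, with log2 fold changes of -1.57 for Lefty2, -0.85 for Lefty1 and -0.84 for Smad7. The ligand gene Nodal (-0.29) and the co-receptor gene Tdgf1 (-0.37) also fell, by smaller amounts. The receptors Acvr1b and Acvr2b and the transducers Smad2 and Smad3 did not pass the test. In all, 5 of the 9 genes were lower and 0 higher, beside 18.4% lower and 12.5% higher among all genes. At an unadjusted p under 0.05, 6 were lower and 0 higher. The share of all genes at that threshold was not counted, and it cannot be below the 18.4% lower and 12.5% higher after adjustment. It may lie well above these, so the count of 6 has no matched share to be read against. Limma with array weights called 6 of the 9 lower and 2 higher, beside 25.1% lower and 21.0% higher among all genes in that fit. The median log2 fold change was -0.29 over the 9 genes and 0.0037 over all genes. The arrays of both groups did not overlap for 6 of the 9, each time with FLAG-CTCFL lower, which was the case for 23.0% of all genes. RNA was taken from whole cultures, so fewer cells making a transcript and less transcript per cell cannot be told apart.

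**Figure D1:**
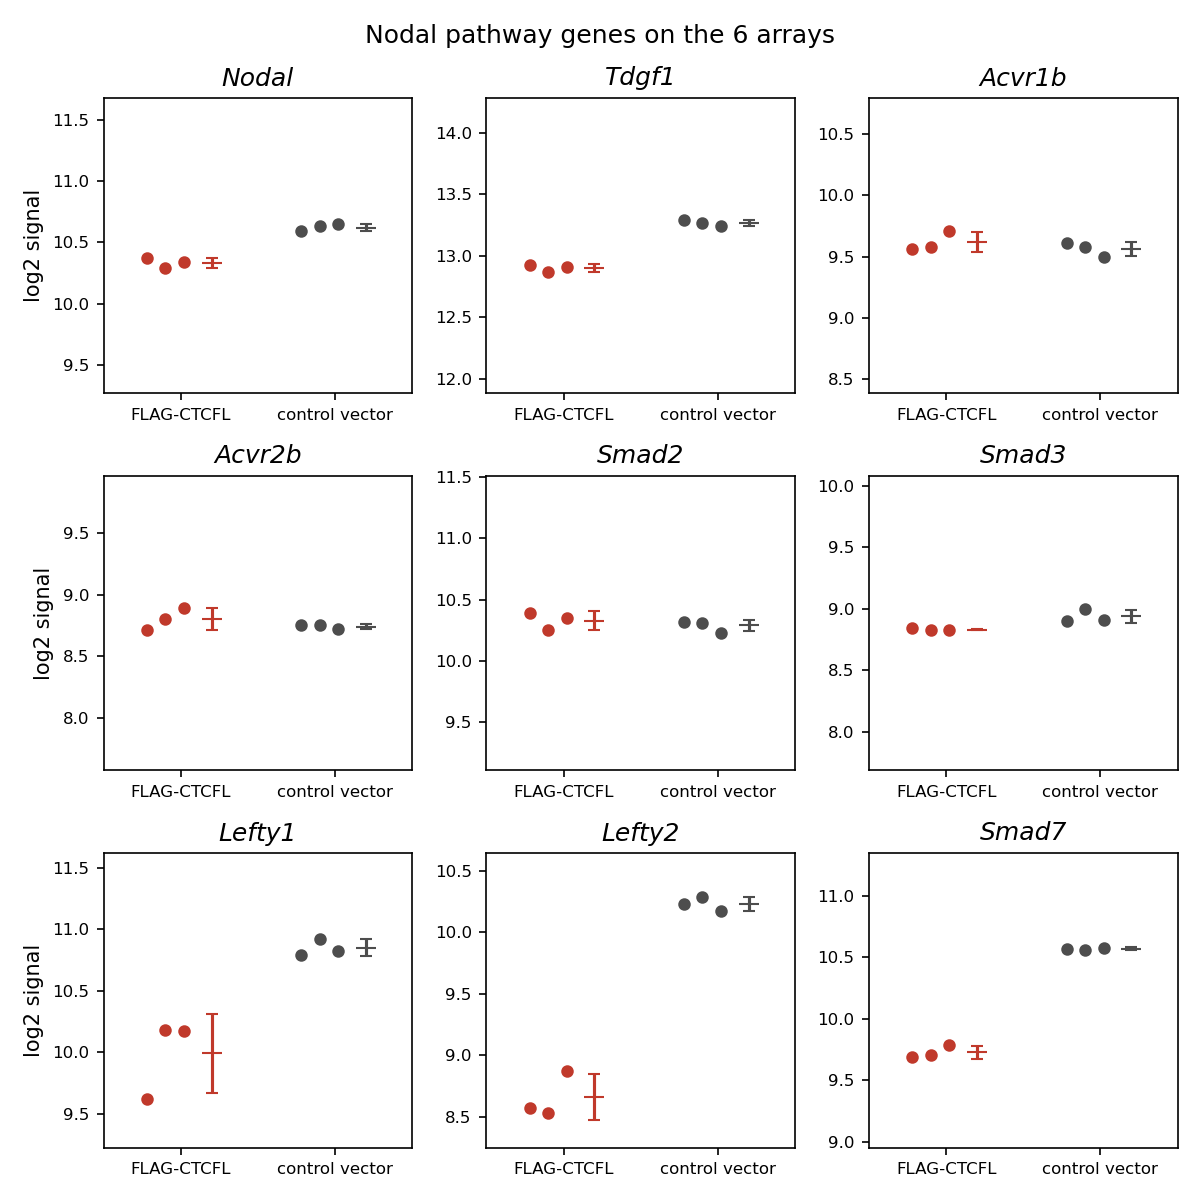
Log2 signal of the 9 genes on each array (points, FLAG-CTCFL left and control vector right in each panel) with the group mean and SD beside them (n = 3 each); every panel spans the same 2.4 log2 units on its y axis. The points of both groups are apart for Nodal, Tdgf1, Smad3, Lefty1, Lefty2 and Smad7, and mix for Acvr1b, Acvr2b and Smad2.

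Nodal, the ligand, read 10.37, 10.29 and 10.34 in FLAG-CTCFL cells, against 10.59, 10.63 and 10.65 in control vector cells. All FLAG-CTCFL arrays lay below all control vector arrays, and the difference was small but several times the spread within a group. The log2 fold change was -0.29 ± 0.04 (SE, n = 3 each), or 1.22-fold lower (limma adjusted p = 0.000165), and 9.14% of all genes fell by more.

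Tdgf1 encodes Cripto, the membrane-anchored co-receptor that Nodal needs and that is abundant in ES cells. Its signal was 12.93, 12.87 and 12.91 in FLAG-CTCFL cells and 13.29, 13.27 and 13.24 in control vector cells. The groups did not overlap here either, and the arrays within each group differed by less than 0.1. Tdgf1 changed by -0.37 ± 0.04 (SE, n = 3 each), or 1.29-fold lower (limma adjusted p = 1.69e-05).

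The promoters of Nodal and Tdgf1 are shown because ligand and co-receptor fell together. RefSeq's promoter table (GRCm38.p6) held 5 of the 9 genes: Nodal, Tdgf1, Acvr1b, Acvr2b and Smad3. Each sequence is the 250 bases before the gene's start on its own strand, 5′ to 3′, at chr10:61417722-61417971 (plus strand) for Nodal and at chr9:110946159-110946408 (minus strand) for Tdgf1. Capitals mark matches, on either strand, to 4 short motifs: the SMAD-binding element CAGAC, the FOXH1-type TGTNNATT, the KLF-type GGGCGTGG, and AGGGGGC from the core that CTCF and CTCFL share. The KLF-type motif was added after the Tdgf1 sequence had been read.
Nodal: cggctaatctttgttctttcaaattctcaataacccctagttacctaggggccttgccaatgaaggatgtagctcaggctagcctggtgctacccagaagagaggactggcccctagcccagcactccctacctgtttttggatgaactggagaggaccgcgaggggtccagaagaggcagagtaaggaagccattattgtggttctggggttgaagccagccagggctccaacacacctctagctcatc
Tdgf1: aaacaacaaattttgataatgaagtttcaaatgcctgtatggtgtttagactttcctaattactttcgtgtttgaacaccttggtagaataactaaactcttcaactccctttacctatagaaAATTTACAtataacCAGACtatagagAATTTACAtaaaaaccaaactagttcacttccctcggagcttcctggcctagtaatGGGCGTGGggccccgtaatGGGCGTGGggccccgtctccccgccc
In these windows Tdgf1 had 1 SMAD element, flanked by 2 matches to the FOXH1-type motif, and 2 KLF-type matches closer to the start, none overlapping another. Nodal had no match to any of the 4. Among 32851 promoter windows of that length, 42.2% held the SMAD element, 10.9% the FOXH1-type, 4.79% the KLF-type and 9.43% the CTCF core motif. Of the 3 genes in the table that did not pass the test, Acvr2b had 1 SMAD element, Smad3 had 1 CTCF core match and Acvr1b had none. Windows of Nodal and Tdgf1 were 53.2% and 42% G or C, and those of Acvr1b, Acvr2b and Smad3 78.8%, 72.8% and 69.2%, with a median of 52.4% over all windows. A match is a match of letters and does not show that a factor binds there.

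Acvr1b encodes ALK4, the type I receptor that phosphorylates SMAD2 and SMAD3. Its probe set read 9.56, 9.58 and 9.71 in FLAG-CTCFL cells, against 9.61, 9.58 and 9.50 in control vector cells, and the groups overlapped. The difference was 0.06 with a 95% interval of -0.06 to 0.17 (limma adjusted p = 0.495). Acvr2b, a type II receptor for activins and Nodal, read 8.71, 8.80 and 8.89 in FLAG-CTCFL cells and 8.75, 8.75 and 8.72 in control vector cells. Again the groups overlapped, with a difference of 0.06 and an interval of -0.05 to 0.17 (limma adjusted p = 0.460). For both receptors the interval reached no further than a 1.12-fold rise or a 1.04-fold fall. With array weights, which give less weight to the noisier arrays, both passed at 0.13 (adjusted p = 0.00999 for Acvr1b and 0.00728 for Acvr2b).

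Smad2 and Smad3 encode the transducers that carry the signal of Nodal, activin and TGF-beta to the nucleus. Smad2 read 10.39, 10.25 and 10.35 in FLAG-CTCFL cells and 10.32, 10.31 and 10.23 in control vector cells, which overlap. Its difference was 0.04, with an interval of -0.07 to 0.15 (limma adjusted p = 0.617). Smad3 read 8.84, 8.83 and 8.83 in FLAG-CTCFL cells, against 8.90, 9.002 and 8.91 in control vector cells. These groups did not overlap, but the difference of -0.11 (interval -0.20 to -0.01) did not pass (limma adjusted p = 0.0810). With array weights Smad3 passed at -0.12 (adjusted p = 0.00828). The arrays measure transcripts only, and phosphorylation of these proteins was not measured.

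Lefty2 had the largest change of the 9 genes. Its signal was 8.57, 8.53 and 8.87 in FLAG-CTCFL cells, against 10.23, 10.29 and 10.17 in control vector cells. Every FLAG-CTCFL array lay more than 1 log2 unit below every control vector array, and the spread was wider among FLAG-CTCFL arrays (SD 0.184) than among control vector arrays (SD 0.0597). The log2 fold change was -1.57 ± 0.07 (SE, n = 3 each), or 2.97-fold lower (limma adjusted p = 5.85e-09). Of all 19937 genes, 0.0903% fell by more, which puts Lefty2 at rank 19 among the falls.

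Lefty1 read 9.62, 10.18 and 10.17 in FLAG-CTCFL cells and 10.79, 10.92 and 10.82 in control vector cells. The groups were apart, but FLAG-CTCFL replicate 1 lay well below the other FLAG-CTCFL arrays, while the lowest Lefty2 value was on FLAG-CTCFL replicate 2. The log2 fold change was -0.85 ± 0.11 (SE, n = 3 each), or 1.81-fold lower (limma adjusted p = 5.98e-05), and it was -0.67 without FLAG-CTCFL replicate 1. When each gene's variance was estimated alone, Lefty1 missed the threshold (adjusted p = 0.0523). Lefty1 and Lefty2 are close paralogs, so probes of either may also bind transcripts of the other. Probe sequences were not used here, and the size of each fall is uncertain to that extent.

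Smad7, the intracellular inhibitor that is itself induced by TGF-beta family signals, had little spread within either group. It read 9.69, 9.71 and 9.79 in FLAG-CTCFL cells, against 10.57, 10.56 and 10.58 in control vector cells. The log2 fold change was -0.84 ± 0.04 (SE, n = 3 each), or 1.79-fold lower (limma adjusted p = 1.24e-08). The falls of Lefty1 and Smad7 ranked close together, at 202 and 207 among all genes. At a minimum change of 1.5-fold, Lefty1, Lefty2 and Smad7 were called lower, and 2.77% of all genes were.

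**Figure D2:**
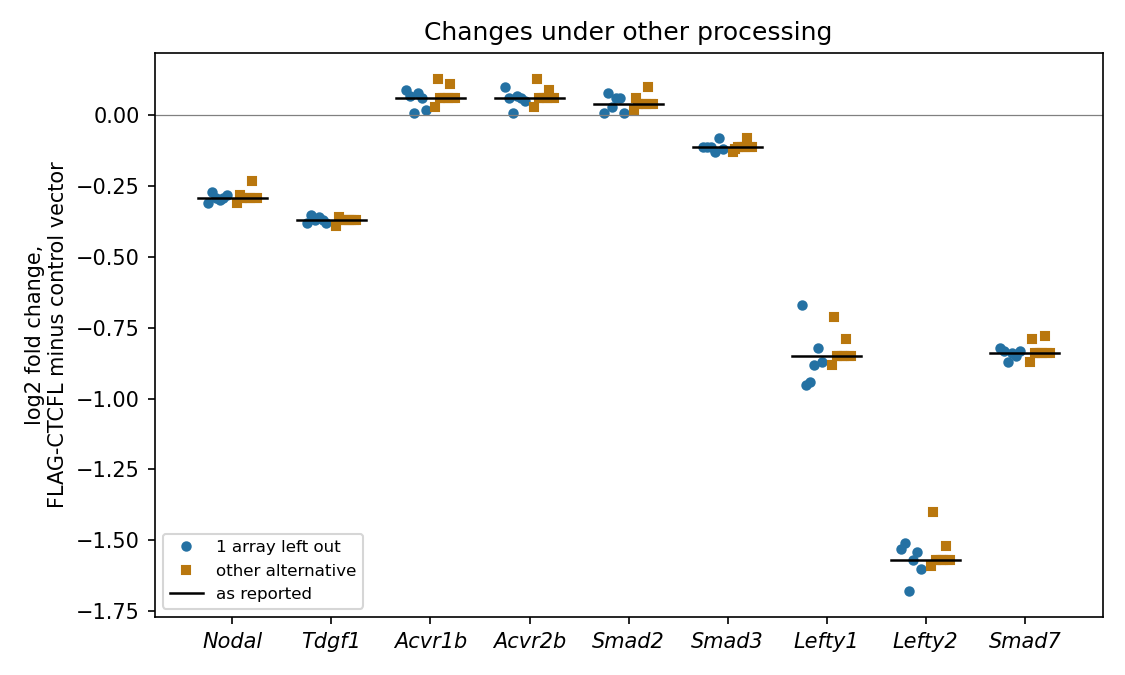
Log2 fold change of each of the 9 genes (y axis, FLAG-CTCFL minus control vector) as reported (black line), with 1 array left out (circles) and under the other alternatives that change the value or its variance (squares). Lefty2 stays between -1.68 and -1.40, Lefty1 between -0.95 and -0.67 and Smad7 between -0.87 and -0.78, while Acvr1b, Acvr2b and Smad2 stay between 0.01 and 0.13.

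Lefty2 and Lefty1 lie side by side on chromosome 1, with no other tested gene between them. Their neighbours were examined after the values of the 9 genes had been seen. Tmem63a, which codes for an osmosensitive ion channel and follows Lefty1, read 8.65, 8.89 and 8.77 in FLAG-CTCFL cells, against 9.53, 9.63 and 9.49 in control vector cells. Ephx1, the microsomal epoxide hydrolase gene that comes next, read 8.66, 8.63 and 8.74 in FLAG-CTCFL cells, against 9.89, 9.89 and 9.72 in control vector cells. Neither gene's groups overlapped, so that 4 genes in a row were lower. Tmem63a changed by -0.78 ± 0.06 and Ephx1 by -1.16 ± 0.05 (SE, n = 3 each; limma adjusted p = 3.92e-07 and 5.36e-09).

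Of the 12 genes within 6 places of the Lefty pair, 4 were lower and 1 higher, beside 18.4% and 12.5% of all genes. Further along on the side of Ephx1, Cnih4 (-0.33) and Wdr26 (-0.23) were lower as well. The Wdr26 call was lost without control vector replicate 1 (adjusted p = 0.0630) or 2 (adjusted p = 0.0876), and both calls were lost when each gene's variance was estimated alone (adjusted p = 0.0636 for Cnih4 and 0.186 for Wdr26). On the side of Lefty2, Mixl1, a homeobox gene of mesendoderm, was higher by 0.31, and none of the other 5 genes passed. H3f3a on this side and 9130409I23Rik, next to Ephx1, were below the dim limit in both groups, so their changes could go unseen. Around the other genes that fell, the 12 nearest tested genes included 3 lower and 3 higher for Nodal, 2 lower and 2 higher for Tdgf1, and 1 lower and 3 higher for Smad7. The genes on both sides of Tdgf1, Lrrc2 (-0.78) and Als2cl (-0.22), were lower as well, and Prss50, 3 places away, was higher by 1.37. Next to Nodal, Pald1 (-0.34) was lower and Eif4ebp2 (0.03) did not pass. Next to Smad7, Dym (-0.07) and Ctif (0.09) did not pass. Lower neighbours were thus not particular to the Lefty pair. Smad2, 4 places from Smad7 on chromosome 18, is among the neighbours that did not pass.

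**Figure D3:**
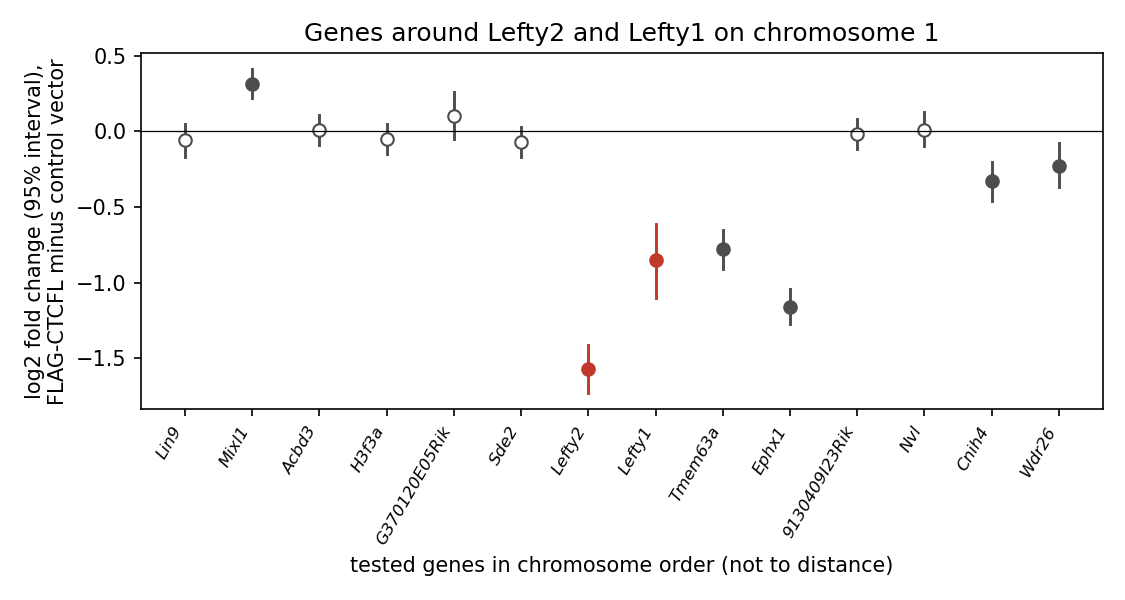
Log2 fold change (y axis, FLAG-CTCFL minus control vector, with 95% intervals; filled points passed the test) of Lefty2, Lefty1 (red) and the 6 tested genes on either side, in chromosome order and not to distance. Lefty2, Lefty1, Tmem63a and Ephx1 form a run of lower genes from -1.57 to -0.78, while the gene before Lefty2 lies near 0. The gene after Ephx1, 9130409I23Rik, also lies near 0 but was below the dim limit in both groups. A fall of that gene could go unseen. Nvl, the gene after it, was not dim and lies at 0.01.

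Other genes of the pathway moved in both directions. Over 4 further lists (ligands and their processing, receptors and SMAD partners, inhibitors, and target genes), 52 of 57 listed genes were measured, 10 were higher and 15 lower (19.2% and 28.8%, beside 12.5% and 18.4% of all genes), and the median log2 fold change was -0.01. After quantile normalization the balance turned, with 14 higher and 11 lower, beside 17.3% higher and 18.3% lower among all genes in that fit. At a minimum change of 1.5-fold, 4 were higher and 4 lower, beside 0.787% and 2.77% of all genes. Calls of small changes depended on the scaling: after subtraction of array medians Tgfb2, Foxh1 and Nedd4l no longer passed (adjusted p = 0.0620, 0.151 and 0.0583), and after quantile normalization Pcsk6 and Junb did not (adjusted p = 0.0896 and 0.0715). The counts of single lists below are small and read against the same 12.5% higher and 18.4% lower of all genes, from which no list is shown to differ.

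Among 11 measured genes for ligands and their processing, 4 were lower and 2 higher. Tgfb1, the gene of the ligand TGF-beta1, read 10.004, 9.92 and 10.01 in FLAG-CTCFL cells, against 9.10, 8.95 and 8.93 in control vector cells. It had the largest change of this list and was opposite in sign to Nodal, at 0.99 ± 0.05 (SE, n = 3 each), or 1.98-fold higher (limma adjusted p = 1.53e-08). Inhbb, the subunit of activin B, read 8.49, 8.46 and 8.57 in FLAG-CTCFL cells, against 9.36, 9.25 and 9.21 in control vector cells, and fell by 0.77 (adjusted p = 1.09e-07). Gdf3, a ligand that can use the Nodal co-receptor, changed by -0.63, and Furin, a protease that cleaves the Nodal precursor, by -0.53. Gdf3 lies 2 places from Nanog on chromosome 6, and of the 13 other genes within 6 places of either, 5 were lower and 0 higher, beside 18.4% and 12.5% of all genes. Small changes of Tgfb2 (0.16) and Pcsk6 (-0.17) also passed; Tgfb2, whose control vector mean of 7.59 was below the dim limit of 7.63, lost its call without control vector replicate 1, and Pcsk6 without FLAG-CTCFL replicate 2 or control vector replicate 2 or 3.

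Changes among receptors and SMAD partners were small. Of 9 measured genes 3 were lower, Tgfbr1, the type I receptor of TGF-beta (-0.20), the type II receptor gene Acvr2a (-0.15) and Eng, a co-receptor of TGF-beta ligands (-0.14). The Acvr2a and Eng calls were lost after quantile normalization (adjusted p = 0.0683 and 0.318) and when any 1 of 4 arrays was left out, FLAG-CTCFL replicates 1 and 3 and control vector replicates 2 and 3. Foxh1, the DNA-binding partner of SMAD2, was the 1 higher gene (0.20), with overlapping groups, and did not pass without FLAG-CTCFL replicate 1 or 3 or control vector replicate 1 or 3. Smad4, the common partner of SMAD2 and SMAD3, did not pass at 0.09, but did so after quantile normalization (0.15, adjusted p = 0.00851), with array weights (0.11) and without FLAG-CTCFL replicate 2 (0.14).

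Among 18 other inhibitors 5 were lower and 2 higher. Fst encodes follistatin, which binds and neutralises activins. It read 8.45, 8.27 and 8.37 in FLAG-CTCFL cells, against 7.63, 7.57 and 7.61 in control vector cells, a rise of 0.76 ± 0.05 (SE, n = 3 each; limma adjusted p = 1.27e-07). Its control vector mean of 7.60 was under the dim limit of 7.63, so the fold change may be understated. Falls were measured for Dact2, an antagonist of Nodal receptors in zebrafish (-0.47), and for Tgif1, a co-repressor of SMAD2 (-0.45). Bambi, a decoy receptor, changed by -0.25, Smad6, an inhibitory SMAD of BMP signals, by -0.24, Fstl3, a relative of follistatin, by -0.21 and the ubiquitin ligase gene Nedd4l by 0.27; these 4 were named after their values had been seen. Smad6 and Nedd4l did not pass when each gene's variance was estimated alone (adjusted p = 0.0965 and 0.171). Skil (0.11) and Pmepa1 (-0.12), which like Smad7 are known feedback targets of TGF-beta family signals, did not pass. Skil passed after quantile normalization (0.17) and with array weights (0.12), and Pmepa1 with array weights (-0.20) and without FLAG-CTCFL replicate 1 (-0.15).

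Known target genes were split in direction. Of 14 measured 5 were higher and 3 lower, with a median of 0.05. Eomes, a T-box gene of the primitive streak, read 8.83, 8.94 and 9.09 in FLAG-CTCFL cells, against 8.35, 8.32 and 8.35 in control vector cells, a rise of 0.61 ± 0.06 (SE, n = 3 each; limma adjusted p = 3.12e-06). The epiblast gene Otx2 (0.32) and Mixl1 (0.31) were higher too, and so was Fgf5 (0.21), a gene of the primed epiblast. Nanog, a pluripotency factor whose gene is a SMAD2 and SMAD3 target in primed cells, read 12.80, 12.69 and 12.68 in FLAG-CTCFL cells, against 13.30, 13.34 and 13.41 in control vector cells, and changed by -0.62 (adjusted p = 5.40e-07). The general TGF-beta targets were split: Ccn2, a matricellular protein gene, rose by 0.93 (adjusted p = 8.81e-08), and Tgfbi, a matrix protein gene, fell by 1.23 on the log2 scale (adjusted p = 2.90e-09). Junb changed by -0.16, a call lost without FLAG-CTCFL replicate 3 or any single control vector array.

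**Figure D4:**
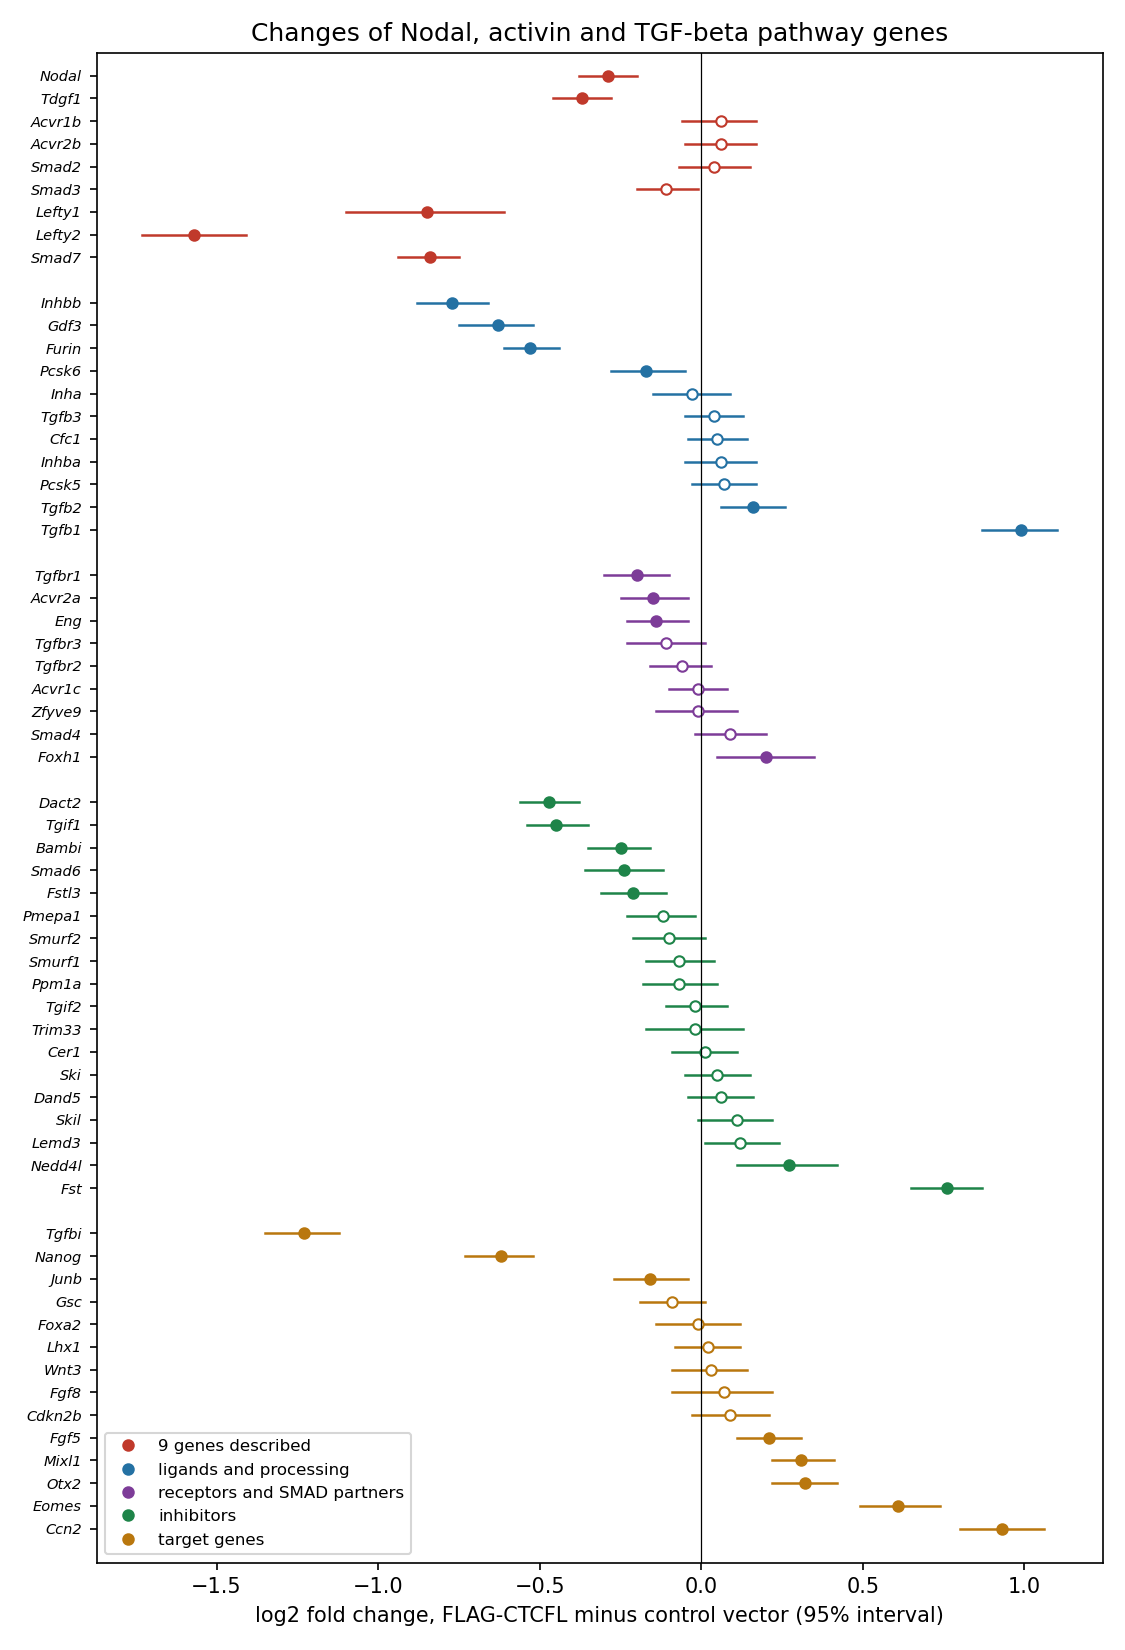
Log2 fold change with 95% interval (x axis, FLAG-CTCFL minus control vector) of the 9 genes (red, top) and of the 4 further pathway lists; filled points passed the test. Lefty2 at -1.57 and Tgfbi at -1.23 lie farthest to the left, and Tgfb1 at 0.99 and Ccn2 at 0.93 farthest to the right.

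Markers of ES cells were lower together with the Lefty genes. Of 9 markers 6 were lower and 0 higher, beside 18.4% lower and 12.5% higher among all genes. Tfcp2l1 (-0.98), Esrrb (-0.50) and Dppa5a (-0.38) were among the lower ones. The call of Sox2 (-0.21) was lost when each gene's variance was estimated alone (adjusted p = 0.0503). At an unadjusted p under 0.05, 7 markers were lower and 0 higher. The share of all genes at that threshold was not counted, and the 18.4% after adjustment does not stand in for it. The mean log2 signal of the 9 markers was 11.89 to 12.04 on FLAG-CTCFL arrays and 12.31 to 12.32 on control vector arrays. Of 6 primitive streak markers, Eomes and Mixl1 were the 2 that passed, both higher, and the mean signal was 8.14 to 8.24 on FLAG-CTCFL arrays and 8.03 to 8.10 on control vector arrays. The part of these cell states in the falls of Lefty1, Lefty2 and Smad7 was not tested.

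Lists for other cell types gave smaller differences in their mean, and their counts too stand beside 12.5% higher and 18.4% lower among all genes. Of 7 trophoblast markers 2 were higher and 1 lower (mean log2 signal 8.05 to 8.11 on FLAG-CTCFL arrays and 8.06 to 8.11 on control vector arrays), with Gata3 (0.33), Cdx2 (0.30) and Tfap2c (-0.73) past the test. The control vector mean of Cdx2 was 7.56, below the dim limit, and its call was lost when each gene's variance was estimated alone (adjusted p = 0.137). Of 7 primitive endoderm markers 3 were higher and 1 lower (8.20 to 8.25 and 8.13 to 8.17), with Pdgfra (0.54) and Lama1 (-0.28) among them. Lama1 lost its call when each gene's variance was estimated alone (adjusted p = 0.0816). The higher calls of Gata6 (0.14) and Dab2 (0.19) were weak: Gata6 lost its call under 9 of 14 alternatives, among them the replicate block (adjusted p = 0.0558) and 5 of the fits with 1 array left out, and Dab2 when probe sets were averaged (0.06, adjusted p = 0.321). Of 6 neural markers 2 were higher and 1 lower (8.37 to 8.39 and 8.28 to 8.36), with Nes (0.68), Map2 (-0.44) and Pax6 (0.32). Of 7 fibroblast markers 1 was higher and 2 lower (8.38 to 8.45 and 8.50 to 8.54), with Fstl1 (-0.73), Thy1 (-0.48) and Col1a1 (0.16). Col1a1 lost its call under 6 of 15 alternatives, among them each fit without FLAG-CTCFL replicate 2 or 3 or control vector replicate 1 or 2. Elf5, Sox17, Mesp1, Zic1 and Lum, 1 from each of the 5 lists other than the ES cell list, were below 7.63 in both groups.

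To see which transcripts had the most similar pattern, the 6 array values of each gene were centred on their mean and compared with those of Nodal, Lefty1 and Lefty2 by Euclidean distance, over 9967 other genes above the median signal. Nearest to Lefty2 were Fxyd6 on chromosome 9 (distance 0.255), A2m on chromosome 6 (0.263) and Renbp on chromosome X (0.281). Lefty1 was nearest to Nynrin on chromosome 14 (0.310), Cldn7 on chromosome 11 (0.316) and its own neighbour Tmem63a (0.333). For Nodal these were Nadk2 (0.0197), Cog5 (0.0203) and Bckdha (0.0454). Lefty2 was not among the 3 genes nearest to Lefty1. The distance is not scaled for the size of a change, so it mainly matches genes with changes of like size. With changes of -1.57 and -0.85, Lefty2 and Lefty1 lie apart on this measure whatever else they share.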

How the data were processed

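The deposited table gives 1 log2 signal per probe set and array for 34760 probe sets. The log2 scale was inferred from the values, which run from 5.73 to 14.56. Per the labels, 200 ng of total RNA was labelled with the Affymetrix WT terminal kit. How the authors corrected, summarised and scaled the signals is not given in the sources used here, and a shift shared by all genes would go unseen.

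The platform annotation gave a single gene symbol to 21640 probe sets (21553 found by Entrez ID in the GRCm38.p6 gene table), several to 1321 and none to 11799. The brightest probe set of a gene was kept. Gene coordinates are not printed, since the arrays' build is not stated.

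The comparison used limma 3.58.1 under R 4.3.3: lmFit with the group as its single term, eBayes, two-sided p-values and Benjamini-Hochberg adjustment over 19937 genes at a threshold of 0.05. The scripts were tested on simulated data with independent noise and far fewer changed genes than were called here. That test checked how the scripts run and does not bear on the calls of small changes. Fold changes (log2) put FLAG-CTCFL over control vector and carry the moderated SE; intervals are 95%. The number of arrays limits the precision. The 9 genes and all lists were chosen with earlier results of these data known. Listed genes beyond those counted as measured were not analysed here.

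Named genes are, by rule, the 9 genes, Ctcfl and Ctcf; from each pathway list those past the threshold with a change of at least 0.3, or else the 3 with the smallest p; the 3 most similar genes; and Pou5f1, Sox2, Nanog and up to 3 passing markers per list. Ctcf differed by 0.01 (adjusted p = 0.880). Tgfb2, Pcsk6, Foxh1, Smad4, Skil, Pmepa1, Fgf5, Junb and the neighbouring genes were added with their values known. The alternatives tried were a replicate block; quantile scaling; centring on array medians; keeping genes over the 25th or 50th percentile of signal; averaging the probe sets of a gene; a robust variance trend; weighting of arrays; a threshold of 0.1; a 1.5-fold minimum; variances not shared between genes; and leaving out single arrays. Python 3.11.15 with matplotlib 3.10.9 drew the figures.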

Additional observations from a re-analysis of the deposited data

How the results depend on the processing

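Of 229 values of the 9 genes and of the counts under 17 alternatives, 216 stayed the same. For genes this means direction and side of the threshold, and for counts within 1.5 times the reported count. Of the log2 fold changes 0 changed sign, which counts cannot do. The percentile filters, averaged probe sets, variance trend, unshared variances, replicate block and threshold of 0.1 left the log2 fold changes of the 9 genes as reported. These could change only the call, so the total overstates how much was tested. With array weights Acvr1b and Acvr2b passed at 0.13 each and Smad3 at -0.12, which made 2 of the 9 genes higher. In that fit 16 further pathway genes were higher instead of 10, beside 21.0% higher instead of 12.5% among all genes. At an adjusted p of 0.1 Smad3 passed with the same -0.11. Without a shared variance Lefty1 no longer passed at -0.85, and 3924 genes changed in place of 6161. Among genes above the median signal, where fewer genes are tested, 6 further pathway genes were higher and 14 lower. Over all genes kept in that fit, 1960 were higher and 3170 lower. How many further pathway genes the filter kept was not counted, so the 6 and the earlier 10 have unlike bases. A minimum change of 1.5-fold left 709 genes, 3 of the 9 lower, and 4 higher and 4 lower further pathway genes. Except where an alternative's own construction shows the cause, the cause was not tested.

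With 1 array left out, 5 of the 9 genes were lower each time, and 4950 to 6429 genes changed. Deviations from the group means of same-numbered arrays correlated at 0.134, -0.204 and -0.0208, and no FLAG-CTCFL array correlated best with its own number, so the arrays share only a number. With the replicate block 5979 genes changed, and 5 of the 9 were lower. The limma adjusted p of Lefty1 was 2.48e-06 with this block and 5.98e-05 without it. Array medians and quantile scaling moved the median change of all genes to -0.0213 and -0.0016. Dim probe sets limit what can be seen: 5463 of 19937 genes, but 0 of the 9, lay below 7.63 in both groups. No batch could be examined, since scan dates are not analysed here.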
